A study of Mus musculus with 2 samples.

Results

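Genomic imprinting leaves a gene active mainly on the copy inherited from 1 parent. Many imprinted genes act on growth, and a group of them is often expressed together in embryonic and perinatal tissues and declines after birth. Of these, 9 are described here in the optic nerve, namely *H19*, *Meg3*, *Peg3*, *Dlk1*, *Cdkn1c*, *Plagl1*, *Mest*, *Ndn* and *Grb10*. They were chosen by name, as members of an imprinted growth network, with earlier results of these data known. All 9 were found among the 23951 gene symbols that both libraries hold, and all 9 were among the 14199 tested, with an FPKM of at least 1 in each library.

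RNA was sequenced from optic nerves of mice at postnatal day 12 (P12), 1 library for each of 2 genotypes. The control came from mice labelled Tcf7l2 c/+ with OLig1-cre, so it carries 1 floxed *Tcf7l2* allele and the Cre driver as well. The mutant library came from mice labelled Tcf7l2 c/c with the same Cre, called *Tcf7l2*ΔHMG, in which Cre excises the floxed exon 11, which codes for the HMG box that binds DNA, in the oligodendrocyte (OL) lineage. Which cells of the optic nerve lost the exon was not measured in these libraries. The strain background was mixed (C57Bl/6, 129Sv and CD-1), and the number of animals behind each library is not given in the sources used here. With 1 library per genotype no difference has a replicate check, so every value below is a description of these libraries, and no p-value is given.

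Levels are in FPKM, which divides fragments by transcript length and by library depth, so genes can be compared with each other. Each value has a Cufflinks confidence interval, which covers counting within 1 library and not variation between animals. The interval bounds of short unnamed rows gave depths of 27624000 fragments for the control and 39938000 for the mutant, so 3 fragments on 1 kb correspond to 0.109 and 0.0751 FPKM. *Tcf7l2* itself was measured at 17.8 FPKM in the control (interval 16.7 to 18.9) and 14.6 in the mutant (13.9 to 15.4). A value for the whole gene does not show whether exon 11 is present, so it cannot check the genotype. The defining OL markers of the tissue were abundant in both libraries, with *Mbp* at 16990 and 11646 FPKM.

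All 9 genes had the higher FPKM in *Tcf7l2*ΔHMG optic nerves, as had 7747 of all 14199 tested genes. Of the 9, 6 were higher by a fold change above 1.5, namely *Dlk1*, *Plagl1*, *Peg3*, *Grb10*, *Meg3* and *H19*. The other 3, *Ndn*, *Cdkn1c* and *Mest*, stayed below it. When all rows of each library were rescaled to a common sum, 2 of the 9, *Dlk1* and *Plagl1*, remained past the cutoff, *Ndn*, *Cdkn1c* and *Mest* dropped below a ratio of 1, and of all tested genes 640 were higher and 7398 lower, in place of 2185 and 1210. Past the same cutoff, 15.4% of all tested genes were higher and 8.52% lower in the mutant. No member was lower by that amount. The median log2 ratio, computed after 0.1 was added to each FPKM, as it was for the cutoff, was 0.88 over the 9 genes and 0.05 over all tested genes, 90% of which lay between −0.83 and 1.18. The summed FPKM of the 9 genes went from 282.9 (control) to 432.8 (mutant), a ratio of 1.53. In whole tissue, more RNA per cell and more cells of an expressing type cannot be told apart.

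**Figure D1:**
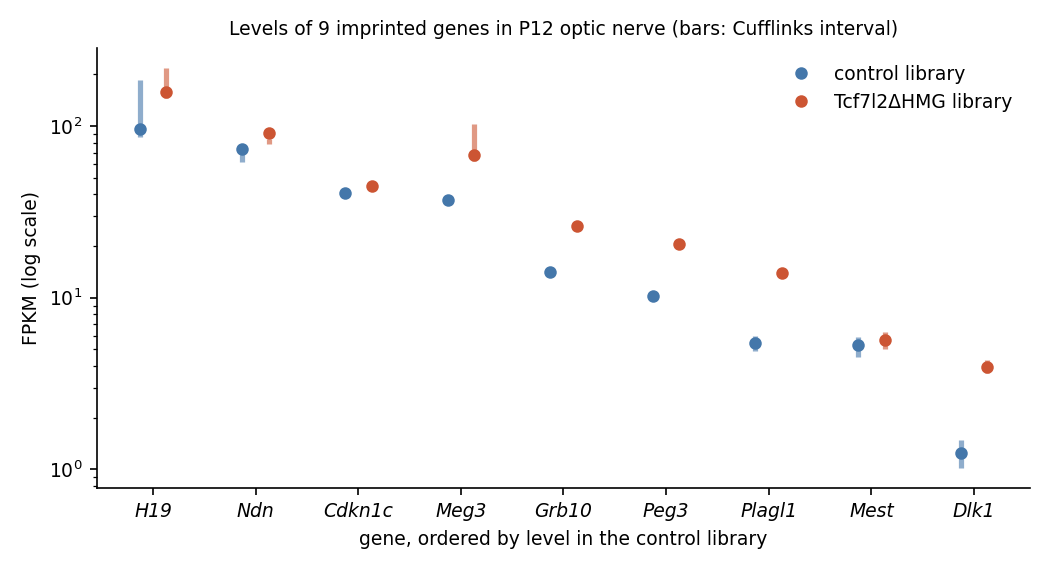
Level of each gene in FPKM on a log axis, with the control library in blue and the *Tcf7l2*ΔHMG library in red; points are the deposited FPKM and bars the Cufflinks interval. The order of levels is nearly the same in both libraries, from *H19* at 95.7 and 158.5 FPKM to *Dlk1* at 1.25 and 3.96 FPKM.

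The order of levels within a library was almost unchanged. In the control it ran *H19*, *Ndn*, *Cdkn1c*, *Meg3*, *Grb10*, *Peg3*, *Plagl1*, *Mest* and *Dlk1*. There, 2 pairs of neighbours had overlapping intervals, *Cdkn1c* with *Meg3* (a ratio of levels of 1.10) and *Plagl1* with *Mest* (1.02). In the mutant *Meg3* stood above *Cdkn1c* by 1.53-fold and *Plagl1* above *Mest* by 2.45-fold, both with intervals apart, and the overlapping pair was *Ndn* with *Meg3* (1.34). These ratios are formed within 1 library, so they do not depend on how the libraries are scaled. Together *H19* and *Ndn* made up most of the summed level, with 33.8% and 25.8% in the control and 36.6% and 21.1% in the mutant.

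Among the regulators of transcription, *Plagl1* (also known as Zac1) encodes a zinc finger factor that can halt the cell cycle and that regulates other imprinted genes. It lies in the mm9 positions of the files at chr10:12810594-12851501. Its level was 5.42 FPKM (interval 4.89 to 5.96) in controls and 13.98 FPKM (13.3 to 14.6) in mutants. The intervals lay well apart, the ratio was 2.58, and the log2 ratio was 1.35, a value that 3.99% of tested genes reached or passed. Short unnamed rows inside its span, 2 in the control and 1 in the mutant, held at most 5.12 FPKM. Of its zinc finger relatives, *Plagl2* had 3.03 and 3.93 FPKM (log2 ratio 0.36), and *Plag1* had 0.270 and 0.480 FPKM, below the level required for the comparison.

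*Peg3* encodes a large zinc finger protein made from the paternal copy. Its FPKM was 10.2 (interval 9.62 to 10.8) in controls and 20.5 (19.9 to 21.4) in mutants, with a log2 ratio of 1.0. The rows of the 2 libraries did not cover the same stretch. The control row ran over 24460 bases, chr7:6658671-6683130, and the mutant row over 26495 bases, chr7:6656636-6683130, beside 26571 bases for the gene in RefSeq on GRCm38.p6. The stretch at issue also had a row of its own without a name, of 2072 bases at 18.4 FPKM in the control and 2083 bases at 13.7 FPKM in the mutant. *Peg3os*, an antisense transcript within the span of *Peg3*, had 19.3 FPKM in controls and is listed at 0 in mutants. The preparation is not stated to keep strand, so fragments of *Peg3* and *Peg3os* cannot be told apart, and the part of these differences in the *Peg3* ratio was not tested.

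Both long non-coding RNAs were among the 6. *H19*, a maternally expressed RNA that shares its control region with the growth factor gene *Igf2*, had 95.7 FPKM in the control library and 158.5 in *Tcf7l2*ΔHMG, a log2 ratio of 0.73. Its intervals were wide, 86.5 to 185.2 and 145.0 to 218.2, and they overlapped, so *H19* is the member past the cutoff whose difference is not larger than the counting error that Cufflinks gives. *Meg3*, the maternally expressed RNA of the Dlk1-Dio3 domain, was measured at 37.0 FPKM (35.9 to 39.6) and 68.1 FPKM (62.6 to 102.8), a log2 ratio of 0.88 with intervals apart. In the files *H19* stands at chr7:149761434-149764051 and *Meg3* at chr12:110779206-110809939 in the control, with ends within 3 bases of these in the mutant.

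The rows of both RNAs also name microRNA genes, *Mir675* for *H19* and *Mir770* and *Mir1906-1* for *Meg3*. One FPKM therefore stands for host and microRNA gene together and says nothing of the mature microRNA. The mature sequences of these microRNA genes are given here from RefSeq (GRCm38.p6), 5′ to 3′, with the seed, bases 2 to 8, in capitals. All 5 seeds differ.
mmu-miR-675-5p: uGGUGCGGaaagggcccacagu
mmu-miR-675-3p: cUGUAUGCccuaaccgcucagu
mmu-miR-770-5p: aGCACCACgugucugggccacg
mmu-miR-770-3p: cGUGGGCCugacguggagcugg
mmu-miR-1906: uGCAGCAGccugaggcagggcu

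*Mir335*, within *Mest*, has a row of its own and is listed at 0 in both libraries.

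The signalling genes gave the largest ratio and the fourth largest. *Dlk1* encodes a transmembrane protein of the Notch ligand type that keeps precursor cells such as preadipocytes from differentiating. It had the lowest level of the 9, 1.25 FPKM (interval 1.02 to 1.48) in the control and 3.96 FPKM (3.62 to 4.32) in the mutant. The intervals lay apart, and the log2 ratio was 1.59, which 3.09% of tested genes reached or passed. *Dlk2*, its closest relative, had a lower level in the mutant, with 7.44 and 4.70 FPKM (log2 ratio −0.65), so *Dlk2* was the more abundant of the pair in the control, while their intervals overlapped in the mutant. Among the Notch receptors *Notch1* and *Notch2* had log2 ratios of 0.20 and 0.52 and *Notch3* of −0.28. The ratio of *Notch4* (1.61) sets a row of *Notch4* alone in the control against a row merged with *Gpsm3* in the mutant.

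*Grb10* encodes an adaptor that binds the insulin and IGF1 receptors and dampens their signal. Control nerves gave 14.2 FPKM (13.3 to 15.0) and mutant nerves 26.3 FPKM (25.5 to 27.5), a log2 ratio of 0.89 with intervals apart. *Grb14*, which acts on the insulin receptor in a like manner, had 20.3 and 52.5 FPKM (log2 ratio 1.37). *Grb7*, the third of the family, stayed under 0.5 FPKM in both. The receptor genes differed less, with *Insr* at 8.26 and 5.71 FPKM (log2 ratio −0.53) and *Igf1r* at 5.53 and 5.77 FPKM (log2 ratio 0.06). Within each library *Grb10* stood at 1.71 times the level of *Insr* in the control and 4.61 times in the mutant.

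**Figure D2:**
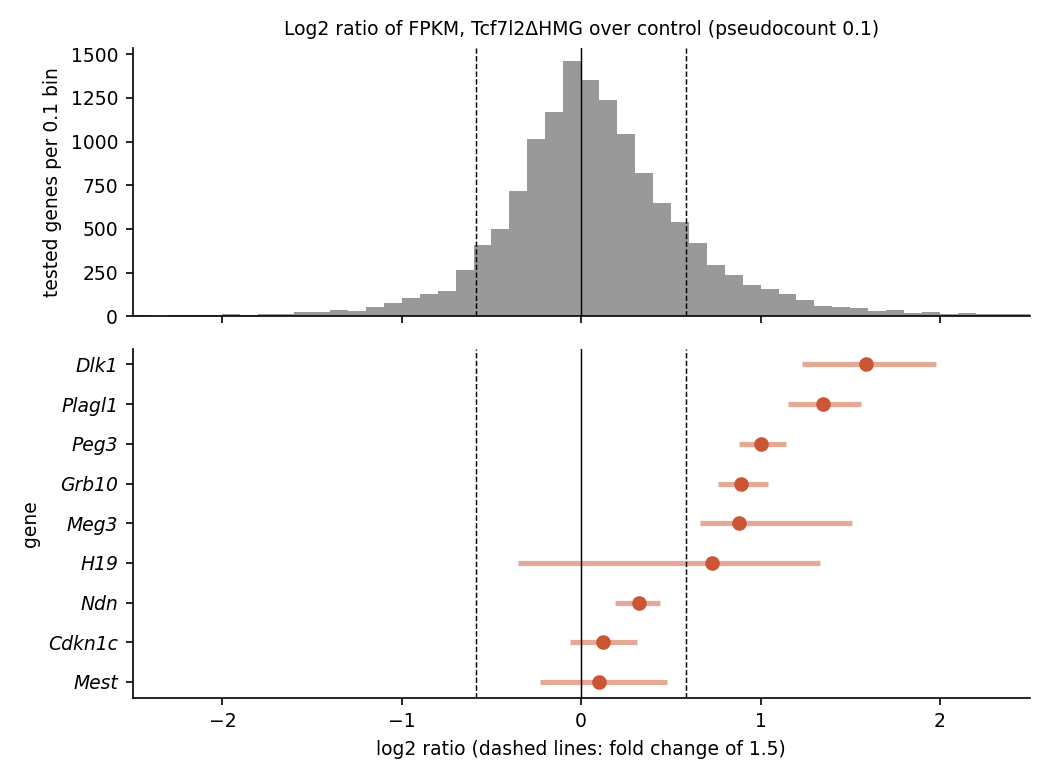
Upper panel, log2 ratios of mutant to control FPKM for the tested genes in bins of 0.1, leaving out the 447 genes beyond 2.5 either way; lower panel, the 9 genes, with bars from the ratio of the facing interval bounds to that of the outer ones. *Dlk1*, *Plagl1*, *Peg3*, *Grb10* and *Meg3* keep the whole bar beyond the dashed line of a 1.5-fold change, *H19* does not, and *Ndn*, *Cdkn1c* and *Mest* lie below the line and fall under 0 if all rows are rescaled to a common sum.

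*Cdkn1c*, the maternally expressed cyclin-dependent kinase inhibitor p57, had a level of 40.8 FPKM (interval 38.1 to 43.7) in the control and of 44.5 FPKM (41.9 to 47.1) in the mutant. The intervals overlapped, and the log2 ratio was 0.12, which 42.9% of tested genes reached or passed. Its relatives spread to either side, *Cdkn1a* (p21) with 10.0 and 22.2 FPKM (log2 ratio 1.14) and *Cdkn1b* (p27) with 18.4 and 14.3 FPKM (log2 ratio −0.36). *Cdkn1c* was the most abundant of the 3 in both libraries. Of the 4 INK4 inhibitors, 3 were tested, with log2 ratios from −0.17 to 0.58. None passed the cutoff, although *Cdkn2b*, at 4.17 and 6.29 FPKM, had a fold change of 1.51 before 0.1 was added.

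*Ndn*, which encodes the MAGE family protein necdin, known for promoting the survival and cell cycle exit of neurons, was at 73.0 FPKM in controls and 91.3 FPKM in mutants, a log2 ratio of 0.32. The intervals were 62.0 to 68.8 and 78.2 to 84.4 and did not overlap, but each FPKM lay above its own interval, and the interval covers the error of this gene in part at most. The other 6 MAGE genes listed had log2 ratios from −0.27 (*Ndnl2*) to 1.73 (*Magel2*), with the most abundant, *Maged1*, at 144.5 and 187.6 FPKM (0.38). *Mest*, which encodes a protein of the hydrolase fold family and is a marker of mesoderm, was measured at 5.31 FPKM (4.52 to 5.94) and 5.71 FPKM (5.04 to 6.33). Its intervals overlapped, and the log2 ratio of 0.10 was the smallest of the 9. In the mm9 positions of the control library *Dlk1* lies at chr12:110691033-110701546, *Grb10* at chr11:11830502-11937423, *Cdkn1c* at chr7:150644244-150646955, *Ndn* at chr7:69493163-69494813 and *Mest* at chr6:30683506-30698466. Intervals were apart, with the mutant higher, for 6 of the 9 genes, *Ndn* among them and *H19* not, beside 30.0% of all tested genes.

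The 9 genes sit in 8 imprinted domains, and their neighbours there did not share 1 direction. In the Dlk1-Dio3 domain, 5 genes reached 1 FPKM. All 5 were higher by more than 1.5-fold, as were 15.4% of all tested genes. Besides *Dlk1* and *Meg3*, the 5 were the non-coding RNA *Rian* (20.0 and 35.2 FPKM, log2 ratio 0.82), *Mirg* (1.12 and 3.46 FPKM, log2 ratio 1.54) and *Begain* (2.40 and 4.22 FPKM, log2 ratio 0.79). The intervals of *Mirg* overlapped, and its row named different microRNA genes in the 2 libraries. *Rian* kept its proportion to *Meg3*, at 0.540 times the level in the control and 0.517 in the mutant, while *Dlk1*, active on the paternal copy where *Meg3* is silent, moved from 0.0339 to 0.0582 times the level of *Meg3*. *Rtl1* and *Dio3* stayed under 0.3 FPKM in both.

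In the *H19* domain the reciprocal partner *Igf2*, active on the paternal copy, had 685.6 FPKM in controls and 1258 in mutants (log2 ratio 0.88), each above its own interval. *Igf2* stood at 7.16 times the level of *H19* in the control and 7.94 times in the mutant. The libraries do not separate the parental copies, so they do not show which allele the RNA came from. Next to *Cdkn1c*, *Slc22a18* was at 2.98 and 4.95 FPKM (log2 ratio 0.71), the row shared by *Cd81* and *Tssc4* had a log2 ratio of −0.10, and *Nap1l4* one of −0.36. *Kcnq1ot1*, the non-coding RNA of that domain, was at 0.710 and 0.700 FPKM. The neighbours of *Peg3* were all under 1 FPKM, with *Usp29* at 0.238 and 0.654, *Zim1* at 0.255 and 0.733 and *Zim3* at 0.240 and 0.953 FPKM.

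The lowest ratios of the neighbours lay beside *Ndn* and *Grb10*. *Snrpn* and *Snurf*, which share a promoter and 1 row in the files, had 231.0 FPKM in controls (211.8 to 250.5) and 53.4 FPKM in mutants (51.3 to 59.3), a log2 ratio of −2.11. In the same domain *Magel2* was at 0.300 and 1.22 FPKM (log2 ratio 1.73), passing the level required in the mutant library alone. *Mkrn3* (2.38 and 1.73 FPKM), *Peg12* (1.55 and 1.24 FPKM) and *Ube3a* (6.69 and 7.27 FPKM) differed by less than 1.5-fold. Beside *Grb10*, *Ddc*, which encodes aromatic amino acid decarboxylase, had 34.5 FPKM in controls and 8.68 FPKM in mutants (log2 ratio −1.98), so its level went from 2.43 times that of *Grb10* to 0.330 times. No other row of at least 1 FPKM overlapped the rows of *Snrpn* or *Ddc* in either library. *Cobl*, on the other side, had a log2 ratio of 0.26. *Copg2*, whose row overlaps the end of the *Mest* row, had 17.4 and 16.5 FPKM (log2 ratio −0.08), and fragments in the shared stretch cannot be assigned without strand.

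**Figure D3:**
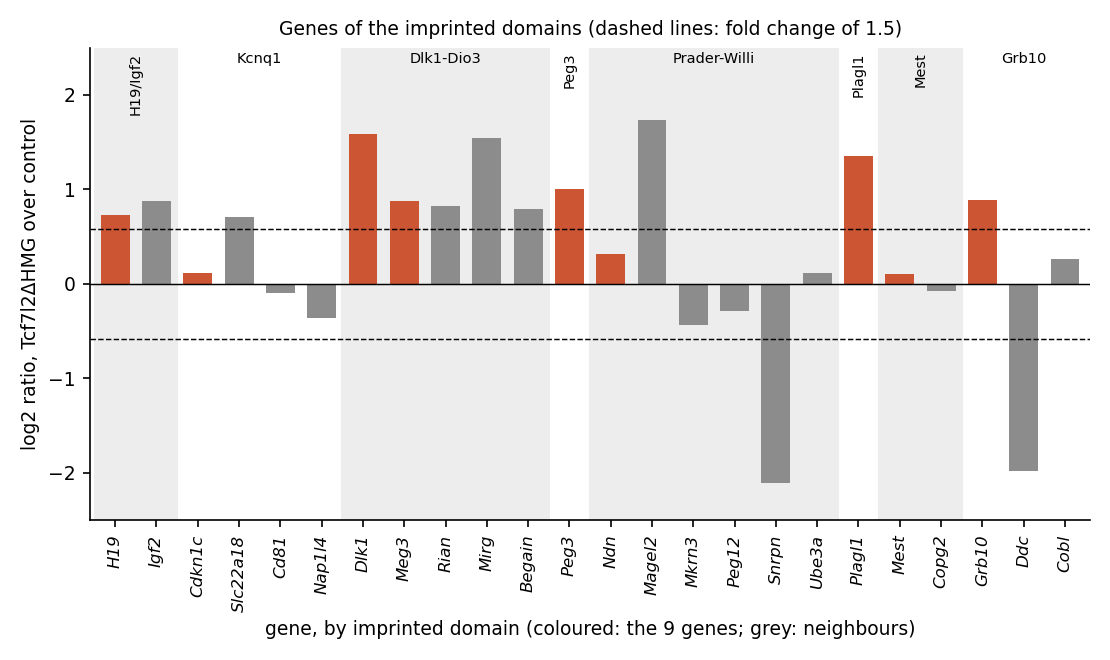
Log2 ratio of mutant to control FPKM for the genes of the 8 imprinted domains with at least 1 FPKM in 1 library, the 9 genes in red and their neighbours in grey; *Cd81* stands for the row it shares with *Tssc4* and *Snrpn* for the row it shares with *Snurf*. All bars of the Dlk1-Dio3 domain are above the dashed line, while *Snrpn* (−2.11) and *Ddc* (−1.98) are the lowest bars.

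The other genes usually placed in the network with *Plagl1* were *Igf2*, *Igf2r*, *Dcn*, *Gatm*, *Gnas* and *Sgce*. Of these 6, 2 were higher past the cutoff, *Igf2* and the matrix proteoglycan gene *Dcn* (137.4 and 235.4 FPKM, log2 ratio 0.78). *Gnas* and *Sgce* had log2 ratios of 0.36 and 0.32, *Igf2r*, the receptor that clears IGF2, had 0.08, and *Gatm*, a creatine synthesis enzyme, had −0.17. All listed imprinted genes tested other than the 9, these 6 and the domain neighbours above included, had 41 distinct rows. *Snrpn* with *Snurf* and *Cd81* with *Tssc4* were counted once. Of these rows 14 were higher and 4 lower past the cutoff (34.1% and 9.76%), beside 15.4% and 8.52% of all tested genes, with a median log2 ratio of 0.23. *Magel2*, *Zdbf2* and *Calcr*, among the 14, reached the level required in the mutant library alone, where they are high. Outside the domains above, the higher ones included *Nnat* (487.5 and 1028 FPKM, log2 ratio 1.08), *Commd1* (45.6 and 83.4 FPKM, 0.87), *Rasgrf1* (2.31 and 4.90 FPKM, 1.05), *Peg10* (2.44 and 4.31 FPKM, 0.79) and *Slc22a2* (1.41 and 2.60 FPKM, 0.83). *Zdbf2* and *Calcr* reached 1.31 and 1.05 FPKM in the mutant from 0.366 and 0.310 in the control. *Ppp1r9a* (14.9 and 7.76 FPKM, log2 ratio −0.93) and *Airn* (4.27 and 2.65 FPKM, −0.67) were lower, the intervals of *Airn* overlapping.

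Cell type markers differed between the libraries as well. The 8 OL markers were all lower in the mutant, 6 of them past the cutoff, from *Mobp* (log2 ratio −2.04) to *Mbp* (−0.54), and their summed level was 30538 FPKM in controls and 17576 in mutants. The 8 meningeal fibroblast markers were all higher, 3 of them past the cutoff, from *Col3a1* (0.09) to *Slc22a6* (0.73), with a median log2 ratio of 0.44 and a summed level of 1006 and 1288 FPKM. The 9 imprinted genes stood at 0.281 times that sum in the control and 0.336 times in the mutant. The red blood cell markers, 5 genes in 4 rows since *Hba-a1* and *Hba-a2* share 1, had a summed level of 162.9 and 402.7 FPKM. All 4 rows were higher past the cutoff, *Alas2* (0.607 and 1.39 FPKM) being tested through the mutant library alone. The 6 neuron or retina markers had a summed level of 11.7 and 21.7 FPKM. Of these, *Rbpms* (3.97 and 8.90 FPKM) and *Snap25* (5.92 and 10.3 FPKM) were higher past the cutoff, *Rbfox3* (0.658 and 1.51 FPKM) was tested through the mutant library alone, and *Pou4f1*, under 1 FPKM in both, was at 0.776 and 0.153 FPKM. The 9 skeletal muscle markers had a summed level of 16.3 and 19.5 FPKM. Of the 3 tested, *Acta1* was at 10.5 and 12.4 FPKM, *Mylpf* at 2.17 and 2.18 FPKM, and *Tnnt3* at 2.76 and 4.28 FPKM, past the cutoff with overlapping intervals, while *Myod1* and *Myog* were under 0.1 FPKM in both.

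Summed levels of the other lists were 4832 and 5638 FPKM for 5 astrocyte markers, 96.3 and 112.5 for 5 microglia markers, 117.0 and 99.7 for 5 endothelial markers, 105.8 and 99.2 for 5 pericyte markers, and 320.6 and 231.0 for 5 OL precursor markers. *Gfap* (4059 and 4729 FPKM) made up most of the astrocyte sum and *Gpr17* (235.0 and 155.8) most of the OL precursor sum. Log2 ratios ran from −0.29 (*Aqp4*) to 0.68 (*Gja1*) for astrocyte markers and from −0.41 (*Aif1*) to 0.51 (*Tmem119*) for microglia markers. They ran from −0.55 (*Cldn5*) to 0.59 (*Cdh5*) for endothelial markers and from −0.64 (*Rgs5*) to 0.94 (*Anpep*) for pericyte markers. For OL precursor markers they ran from −0.59 (*Gpr17*) to −0.09 (*Pdgfra*). No marker of any list was at 0. The part of these lists in the ratios of the 9 imprinted genes was not tested.

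**Figure D4:**
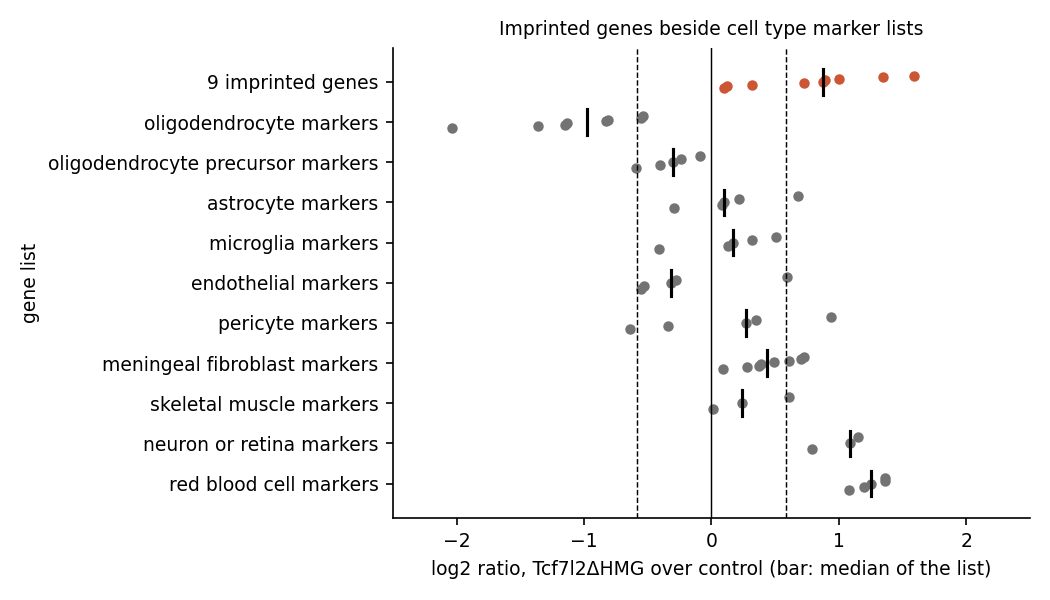
Log2 ratio of mutant to control FPKM for the 9 imprinted genes in red and for the tested genes of 10 cell type marker lists in grey, with the median of each list as a black bar. The median of the imprinted genes (0.88) lies above that of the meningeal fibroblast markers (0.44), though the points of these lists overlap. The plotted medians of the neuron or retina markers (1.09) and the red blood cell markers (1.25) are higher. The first covers only the 3 tested of 6 markers and is the value of *Rbfox3*, tested through the mutant library alone. The second includes *Alas2*, tested in the same way, and is 1.23 with the shared row counted once. The order of these medians and that of the imprinted genes is therefore not read as a result. The OL markers have the lowest median (−0.98).

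The ratios between the libraries depend on how these are scaled. Centring on the median ratio, scaling to the 75th percentile and rescaling named rows left the median log2 ratio of the 9 genes at 0.83, 0.89 and 0.81. Rescaling all rows to a common sum added about −0.67 to each log2 ratio, which took the median of all tested genes to −0.61 and that of the 9 genes to 0.21. *Dlk1* (0.91) and *Plagl1* (0.68) then remained past the cutoff, *Peg3*, *Grb10*, *Meg3* and *H19* lay between 0.06 and 0.33, and *Ndn*, *Cdkn1c* and *Mest* lay between −0.55 and −0.35. The cell type markers shifted likewise, with 2 of the 8 meningeal fibroblast markers and all red blood cell markers left above 0, and none of the 8 OL markers. Unnamed rows under 300 bases made up 68.3% of all FPKM in controls and 79.1% in mutants. When only rows of at least 300 bases entered the sum, all 9 genes were again above 0 and 6 passed the cutoff. Of all tested genes, 1951 were then higher and 1477 lower past it.

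**Figure D5:**
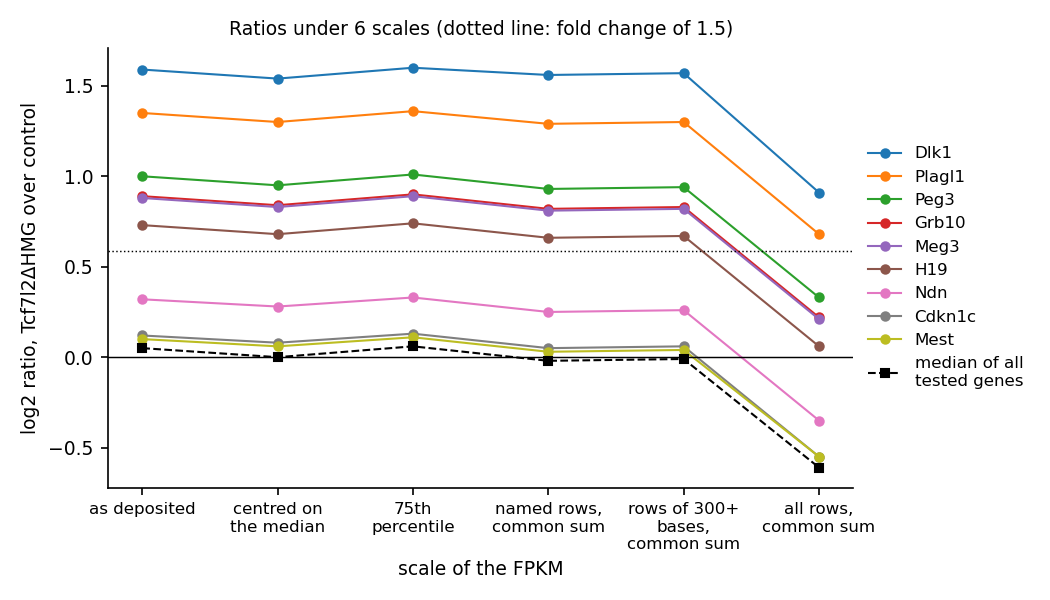
Log2 ratio of mutant to control FPKM of each gene under 6 scales, with the median of all tested genes as black squares. Each scale shifts all ratios by about the same amount, so by construction the 9 genes keep their order apart from near ties. The common sum over all rows moves every gene and the median (to −0.61) down, taking *Ndn*, *Cdkn1c* and *Mest* below 0.

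Promoter sequence was available for 7 of the 9 genes, in 11 windows from RefSeq (GRCm38.p6) that run from 250 bases before to 50 bases after a transcript start. *H19* and *Cdkn1c* had none in the table used. The TCF/LEF core, searched as CTTTGAA and as CTTTGAT on both strands, was found in 0 of the 11 windows, beside 5.14% and 3.73% of all 32851 windows of the same length. GGGGCCCC, a GC-rich site of the kind bound by PLAGL1, was found in 1 of the 11, that of *Peg3*, starting at base 50 of the window, and in 1.08% of all windows. A match of letters is a description and not a bound site. With shares this low over all windows, 11 windows are too few to read anything from an absence.

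The windows of the 3 genes with the largest ratios are shown because CpG sites, in capitals, are where imprinted promoters can carry methylation, which was not measured here. Each reads 5′ to 3′ on the strand of the gene. The *Plagl1* window (chr10:13090582-13090881, plus strand) holds 26 CpG, the *Peg3* window (chr7:6730370-6730669, minus strand) 13 and the *Dlk1* window (chr12:109452573-109452872, plus strand) 9, beside a median of 7 over all windows.
Plagl1 promoter: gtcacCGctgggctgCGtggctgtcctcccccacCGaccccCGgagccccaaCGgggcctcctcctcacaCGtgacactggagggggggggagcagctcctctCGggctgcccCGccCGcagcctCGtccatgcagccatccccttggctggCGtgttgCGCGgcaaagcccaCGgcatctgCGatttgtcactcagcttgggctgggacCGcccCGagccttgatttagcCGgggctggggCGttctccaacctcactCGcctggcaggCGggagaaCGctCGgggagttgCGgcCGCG
Peg3 promoter: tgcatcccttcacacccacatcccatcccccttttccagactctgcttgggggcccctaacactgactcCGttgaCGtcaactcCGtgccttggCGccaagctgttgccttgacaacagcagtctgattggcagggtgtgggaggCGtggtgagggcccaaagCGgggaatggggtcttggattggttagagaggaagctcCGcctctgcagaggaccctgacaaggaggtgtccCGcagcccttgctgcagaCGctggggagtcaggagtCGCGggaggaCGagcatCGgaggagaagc
Dlk1 promoter: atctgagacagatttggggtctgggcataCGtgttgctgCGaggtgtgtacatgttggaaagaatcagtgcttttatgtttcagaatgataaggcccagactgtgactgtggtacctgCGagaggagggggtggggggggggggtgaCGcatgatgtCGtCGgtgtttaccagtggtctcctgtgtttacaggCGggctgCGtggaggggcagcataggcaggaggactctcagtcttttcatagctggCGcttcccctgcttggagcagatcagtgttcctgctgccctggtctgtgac

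The *Grb10* windows differed most from each other, with 45 CpG in one and 9 in the other.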

How the data were processed

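RNA-seq was performed by the authors on optic nerves of control and *Tcf7l2*ΔHMG mice at P12, 1 library each. Per the labels, reads were mapped with TopHat to mm9 and analysed with Cufflinks; versions are not given in the sources used here. The deposited tables give FPKM and its Cufflinks interval for each row, as computed by the authors, with some rows naming several genes and others unnamed. Depth differed by library and was read from the interval bounds of unnamed rows under 100 bases. Starts were counted from 1.

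Merged names were separated and FPKM summed per symbol. Symbols of status OK in each library that reached 1 FPKM in at least 1 were tested, that is, compared, since no statistical test was possible. Log2 ratios used a pseudocount of 0.1, which understates changes of low genes. The cutoff was a fold change of 1.5. The text names the 9 genes, *Tcf7l2*, listed imprinted genes past the cutoff, family and domain genes of at least 1 FPKM, and a few below that level. Markers are given by list. Alternatives changed the pseudocount, filter, scale, treatment of merged rows, status, fold change and use of interval bounds. Members and lists were chosen with earlier results of these data known. The computation was tested on simulated data. Python 3.11.15, numpy, pandas 2.3.3 and matplotlib 3.10.9 were used.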

Additional observations from a re-analysis of the deposited data

Results flagged for a closer look

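Unnamed rows inside the spans of *Meg3* and *Grb10* carried far more FPKM in the mutant library than any unnamed row there in the control. Within *Meg3* these were a row of 50 bases at 48592 FPKM, which alone is 2.05% of the summed FPKM of that library, and a row of 84 bases at 791.3 FPKM, while the control had none of at least 1 FPKM. Within *Grb10* they were rows of 97 and 140 bases at 220.8 and 67.5 FPKM, beside 1 control row of 228 bases at 12.4 FPKM. Each of the 4 mutant values lay above its own Cufflinks interval, whose upper bounds ran from 6.44 to 13.7 FPKM. The control value within *Grb10* also lay above its interval, 1.429 to 4.763 FPKM. That interval overlapped those of the mutant rows there, 2.065 to 7.486 and 2.325 to 6.439 FPKM. The higher FPKM of the short rows within *Grb10* therefore cannot be read as more fragments in the mutant. Within *Meg3* no control row of at least 1 FPKM was there to compare. The mutant intervals there were 2.504 to 12.02 FPKM (50 bases) and 5.067 to 13.71 FPKM (84 bases), far below the FPKM. Whether these 2 rows differ in fragments was not tested. None of the unnamed rows entered the values of *Meg3* or *Grb10*.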

How the results depend on the processing

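Of 114 recomputed ratios of the 9 genes under the alternatives, 105 lay within the bounds set by their Cufflinks intervals, 9 moved beyond them, and none past the cutoff changed sign. Ratios of the facing interval bounds, under which *H19* did change sign, are not among the 114. Each of the 9 genes has 1 row per library, so changes of filter, status and treatment of merged rows could not move its ratio. The values from those settings, counted among the 105, repeat the main ratio and are no check of it. Of the moves, 1 was *Dlk1* with a pseudocount of 1 (log2 ratio 1.14), and the other 8 came from rescaling all rows to a common sum. On that scale 2 of the 9 genes were higher past a fold change of 1.5 in place of 6, their median log2 ratio was 0.21 in place of 0.88, and 640 of all tested genes were higher and 7398 lower in place of 2185 and 1210. With a fold change above 2, 2 of the 9 genes were higher, beside 975 higher and 522 lower of all genes. An FPKM of at least 5 in 1 library left 1290 genes higher and left out *Dlk1*. Leaving out merged rows removed *H19* and *Meg3*, and 4 of the other 7 genes passed, beside 1930 higher of 13136 tested genes. Using the facing interval bounds, 5 of the 9 genes passed, and 6 stayed above 0. *H19* then had a log2 ratio of −0.35, *Mest* of −0.23 and *Cdkn1c* of −0.06. No count over all tested genes is given for that setting. The sum over rows of at least 300 bases was chosen after seeing the data. No paired analysis was possible because there was 1 library per genotype, and for the same reason no replicate could be left out.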
